A study of Mus musculus with 5 samples.

Results

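The genes described here build and guard the kinetochore, the protein assembly that ties each chromosome to the spindle. Of 39 symbols listed for the kinetochore, the centromere and the spindle checkpoint, 36 had an array feature that named no other gene, out of 22180 genes with such a feature. Hjurp, Mis12 and Oip5 were named only on features shared with other genes and are not given a value. Of these genes only Ska2 had more than 1 such feature, and the brighter one, by its mean over all 5 arrays, stood for it.

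Mouse hematopoietic stem cells (HSCs), the rare marrow cells that renew the blood lineages, were studied for their response to all-trans retinoic acid (ATRA), the active form of vitamin A. Both groups came from C57BL/6 mice, with no genetic change named in the labels: stem and progenitor cells spent 24 h in culture, in DMSO for the control or in 5 µM ATRA for the treated group, after which HSCs were isolated in a flow cytometry sort. Their RNA was read on 5 arrays, 3 for DMSO and 2 for ATRA. The age and number of the mice are not given in the labels, nor whether replicates came from separate cultures, so a p-value here weighs a difference only against the spread of these samples, and that spread may be technical.

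A centromere is marked by nucleosomes that carry the histone variant CENP-A. On them sits the inner kinetochore, a set of CENP proteins, which carries the outer kinetochore, whose NDC80 complex grips the microtubules. The spindle checkpoint holds back anaphase until every kinetochore is attached, and the chromosomal passenger complex, with the kinase Aurora B, releases faulty attachments. Most of these transcripts are made in dividing cells and peak late in the cell cycle, and quiescent HSCs are known to hold little of them.

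The promoters of many such genes carry a CHR element with the letters TTTGAA and a CCAAT box, the elements through which the DREAM and B-MYB complexes and NF-Y act. RefSeq promoter windows of build GRCm38.p6, from 250 bases before to 50 bases after the transcription start, were on hand for 31 of the 36 genes. Of these 31, 13 (41.9%) held TTTGAA on either strand, against 20.2% of all 27025 genes with such a window and 17.9% of all 32851 windows. The CCAAT letters were found in 21 of 31 (67.7%, against 41.1% of all genes and 37.4% of all windows), and TTCCCGC, a core of E2F sites, in 8 (25.8%, against 5.29% of all genes and 4.6% of all windows). TTTGAA together with CCAAT was found in 11 of 31 (35.5%), against 7.97% of all genes. Among 13 genes that passed the test described below, 7 held TTTGAA, 7 CCAAT and 3 TTCCCGC, and among 18 that did not, 6, 14 and 5 did. A match of letters is a description and does not show a used site.

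The 120 bases before the start are given for 6 genes, picked after their values were seen. Cdc20, Ska3, Bub1b and Ttk passed the test, and Bub3 and Cenpw did not. They show how the letters lie in promoters of genes of unlike behaviour. Capitals mark the CHR and CCAAT letters on either strand.
Cdc20, chr4:118437344-118437463, minus strand: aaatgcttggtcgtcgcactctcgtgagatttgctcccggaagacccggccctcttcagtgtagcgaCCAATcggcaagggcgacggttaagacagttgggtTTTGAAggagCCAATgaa
Ska3, chr14:57826164-57826283, minus strand: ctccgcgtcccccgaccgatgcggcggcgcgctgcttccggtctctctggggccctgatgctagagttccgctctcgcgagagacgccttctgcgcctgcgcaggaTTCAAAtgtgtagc
Bub1b, chr2:118598091-118598210, plus strand: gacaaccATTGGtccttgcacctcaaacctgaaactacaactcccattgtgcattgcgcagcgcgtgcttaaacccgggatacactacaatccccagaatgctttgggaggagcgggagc
Ttk, chr9:83834569-83834688, plus strand: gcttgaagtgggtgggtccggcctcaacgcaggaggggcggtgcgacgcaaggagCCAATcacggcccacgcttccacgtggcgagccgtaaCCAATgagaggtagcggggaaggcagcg
Bub3, chr7:131560250-131560369, plus strand: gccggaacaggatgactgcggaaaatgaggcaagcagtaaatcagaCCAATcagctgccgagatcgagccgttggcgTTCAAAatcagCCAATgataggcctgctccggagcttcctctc
Cenpw, chr10:30200541-30200660, minus strand: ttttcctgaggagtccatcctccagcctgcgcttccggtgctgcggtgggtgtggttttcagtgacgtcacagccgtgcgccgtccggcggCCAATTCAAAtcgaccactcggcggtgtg
In Cdc20, TTTGAA starts 18 bases before the start, between CCAAT boxes at 53 and 8 bases. In Cenpw the CCAAT box and the reversed TTTGAA share a base. Bub1b and Ttk hold TTTGAA after the start, at bases 41 and 8, outside the printed stretch.

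The ATRA arrays stood apart from the DMSO arrays and from each other before any gene was tested. Over all features the SD was 1.96 to 1.97 with DMSO but 1.77 and 1.49 with ATRA. Pearson's r across features, which are not independent replicates, was at least 0.966 for any pair of control arrays and 0.730 for the ATRA pair. Difference from DMSO followed the level of a gene: a smooth trend over all genes stood at -0.79 in ATRA replicate 1 and -1.29 in replicate 2 for a DMSO value of 8, and at 0.31 and 0.72 for a value of 5. For the kinetochore genes as a whole, counts and medians below are therefore also given after that trend was removed from every array. So is the value of most genes named, while mean values of marker lists are given as deposited only. Of 11 HSC and progenitor markers 9 had a feature, all with a DMSO mean above the median of all features (6.03). All 9 differences were negative as deposited, against 42.0% of all genes. In the test described below 5 of the 9 passed as lower, against 15.5% of all genes. These were Kit (-3.25), Gata2 (-2.99), Mecom (-2.17), Hlf (-1.33) and Flt3 (-0.75) as deposited. Removal of the level trend left them at -0.73, -0.67, -0.63, 0.29 and -0.64. With the level trend removed 0 of the 9 passed, and their median difference was -0.52. In that fit 0.996% of all genes were lower and 2.16% higher. As deposited, their mean log2 value went from 8.55 to 8.72 in the DMSO arrays to 7.54 and 6.67 in ATRA. Mean values of markers of other marrow cells, all 7 T and NK cell markers (5.61 to 5.76 in DMSO, 6.08 and 6.39 in ATRA), 5 of 6 B cell markers (5.66 to 5.73, then 5.82 and 6.22), all 8 neutrophil markers (5.71 to 6.19, then 6.39 and 6.15), all 6 macrophage and monocyte markers (6.43 to 6.56, then 6.70 and 6.22), 4 of 8 erythroid markers (6.29 to 6.64, then 6.00 and 6.44) and 5 of 6 megakaryocyte markers (8.20 to 8.37, then 7.69 and 7.77), moved by at most 0.70 in any ATRA array. Among single markers of these other cells as deposited, Itga2b of the megakaryocyte list fell by 2.07, and S100a9 (0.81) and the T cell gene Cd3g (0.57) rose. Differences that did not pass reached -1.67 for Cd68 and 1.34 for S100a8, which was at 2.42 in ATRA replicate 1. With the level trend removed Itga2b stood at -0.23, S100a9 at 0.41 and Cd3g at 0.04, and none of them passed. In that fit Pf4, a megakaryocyte marker, passed as higher (2.01, limma adjusted p = 0.0312), as did Nkg7 (0.85, adjusted p = 0.0407). As deposited, Pf4 stood at -0.17 and Nkg7, of the T and NK list, at -0.01. The part of these markers in the results was not tested.

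Set against the DMSO control, the ATRA arrays show how retinoic acid treatment went with the level of these transcripts. Of the 36 kinetochore and checkpoint genes, 17 fell, 0 rose and 19 did not pass (limma, Benjamini-Hochberg adjusted p under 0.05 over all genes). The share that fell was 47.2%, and that of all genes was 15.5%, with 6.48% of all genes higher. The median DMSO mean was 8.16 over the 36 genes and 6.20 over all genes, and the trend above follows that level. With the level trend removed 1 of the 36 was lower, against 0.996% of all genes. The deposited log2 values of the 36 genes had medians of 8.14, 8.23 and 8.11 with DMSO, and of 7.21 and 6.26 with ATRA. The median log2 difference was -1.41, against 0.16 over all genes, and the single differences ran from -2.87 for Birc5 to -0.02 for Cenpp. All 36 differences were negative as deposited, against 42.0% of all genes. There were 31 after quantile normalization, 26 after cyclic loess normalization and 24 after removal of the level trend. These settings brought the median of all genes to 0.06, 0.01 and 0.02. In 30 genes (83.3%) both ATRA values lay below all 3 DMSO values, and in 29.2% of all genes they did. In bulk RNA of this kind, fewer cells of a type and less RNA per cell cannot be told apart.

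**Figure D1:**
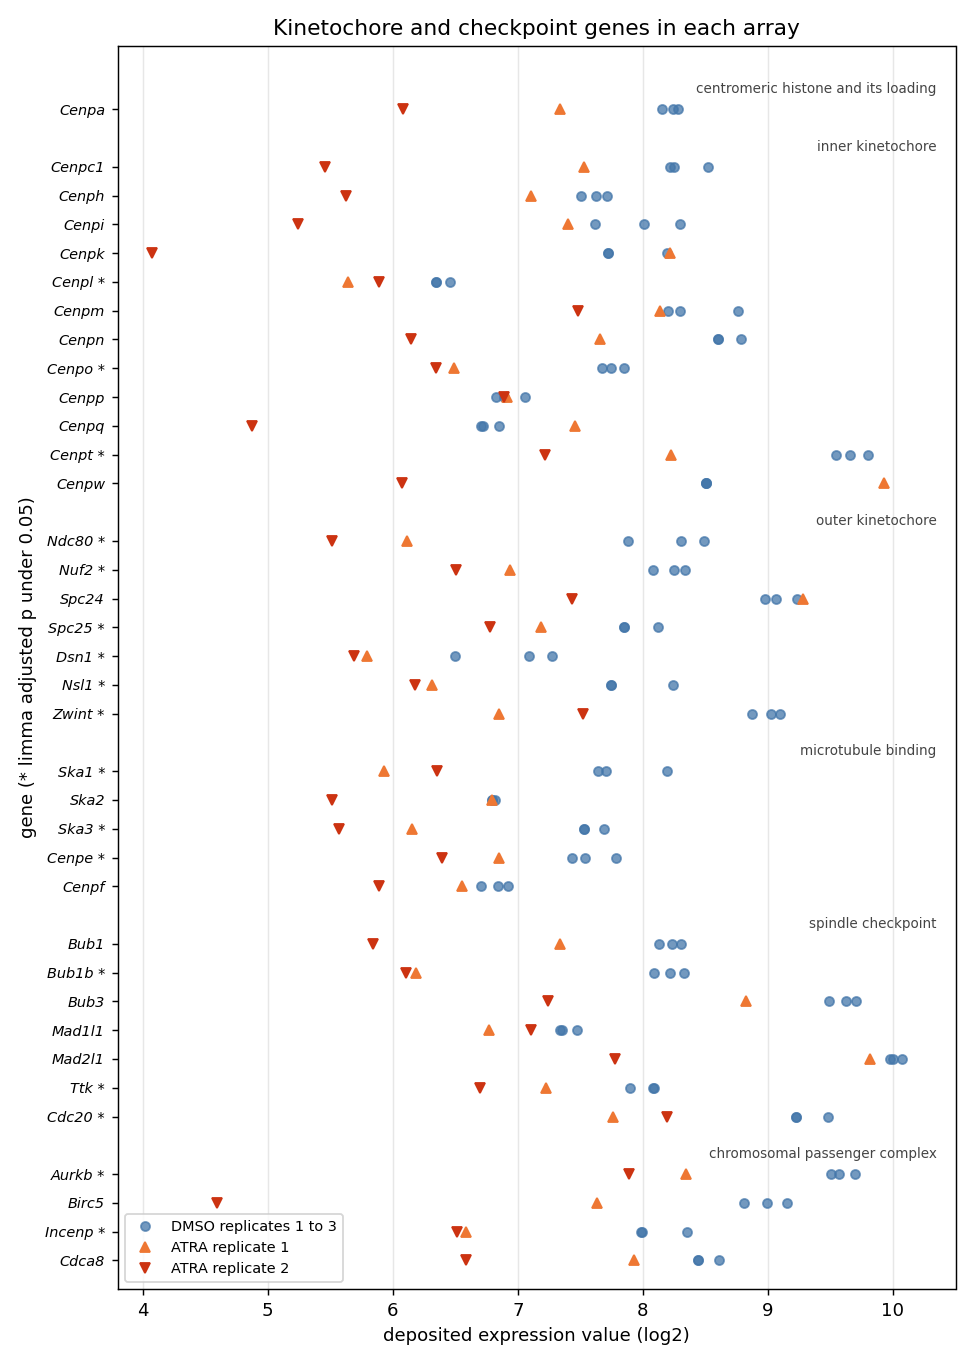
Deposited log2 expression value (horizontal axis) of the 36 genes (vertical axis, grouped by role) in each DMSO array (circles) and in the ATRA arrays (triangles), with an asterisk where the limma adjusted p was under 0.05. In 30 genes both ATRA values lie left of all DMSO values as deposited, and in Cenpk, Cenpw, Cenpq and Spc24 the ATRA arrays lie on opposite sides of the DMSO values.

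The calls, though not the differences, were lost without any 1 of the 3 DMSO arrays. Leaving out DMSO replicate 1, 2 or 3 left 0 of the 36 genes past the threshold in limma, as for 0% of all genes, with a smallest adjusted p of 0.0605, 0.0641 and 0.0682. The median difference was then -1.43, -1.44 and -1.40, and all 17 genes that fell in the full comparison stayed negative. At an unadjusted p under 0.05, 17, 18 and 19 of the 36 were lower, against 17.3%, 17.8% and 17.6% of all genes. Without ATRA replicate 1, 32 genes were called lower and 0 higher (30.6% and 33.5% of all genes), and without ATRA replicate 2, 21 were lower and 2 higher (21.3% and 13.3% of all genes). Such a fit takes the spread of the DMSO arrays for that of the remaining ATRA array. With the level trend removed, 1 gene was called lower, Ska3, and 0 higher, against 0.996% and 2.16% of all genes, and the median difference was -0.39. Quantile normalization left 7 falls and 0 rises (3.87% and 2.19% of all genes), and cyclic loess 7 falls and 1 rise (5.1% and 4.97%). The falls of Ndc80, Bub1b, Nsl1, Cenpo and Ska3 passed in both of these fits, and that of Ska3 also with the level trend removed. Among 3 arrays against 2, an exact two-sided permutation test cannot give a p below 0.1.

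At the base of the assembly, Cenpa, the histone variant that marks the centromere, was at 8.28, 8.15 and 8.24 in DMSO and at 7.34 and 6.08 in ATRA. Both ATRA values were lower than every DMSO value, yet they lay 1.25 apart, and the difference of -1.51 did not pass (SE 0.40, limma adjusted p = 0.0601). Removing the level trend left -0.33, of which none was in ATRA replicate 1 (0.00) and -0.65 in replicate 2.

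Of 12 inner kinetochore genes, 3 fell and 9 did not pass, where 15.5% of all genes fell. With the level trend removed 0 of the 12 were lower, against 0.996% of all genes, and 8 of the 12 differences were negative. Cenpt, the histone-fold protein that reaches from DNA to the NDC80 complex, fell from 9.65, 9.80 and 9.54 in DMSO to 8.22 and 7.22, a log2 difference of -1.95 (SE 0.33, limma adjusted p = 0.0246) that became 0.11 with the level trend removed. Cenpo, of the complex that also holds CENP-P and CENP-Q, fell from 7.74, 7.85 and 7.67 to 6.49 and 6.35, or 2.53-fold (adjusted p = 0.00866). The ATRA arrays nearly met in this gene, and its difference with the trend removed was -0.49 (adjusted p = 0.153). Cenpl, the partner of CENP-N, fell by 0.62 (adjusted p = 0.041), from 6.46, 6.35 and 6.35 to 5.64 and 5.89. Its DMSO mean was 6.38, where that of the median gene was 6.20, and its difference with the trend removed was -0.79 (adjusted p = 0.0535).

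In 7 of the 9 inner kinetochore genes that did not pass, all but Cenpm and Cenpp, the ATRA arrays lay more than 1 log2 unit apart. Cenpw, which pairs with CENP-T, was at 8.51 in each DMSO array, at 9.93 in ATRA replicate 1 and at 6.08 in replicate 2. Cenpk went from 8.20, 7.72 and 7.72 to 8.21 and 4.07, and Cenpq from 6.85, 6.70 and 6.72 to 7.46 and 4.87. In these 3 genes replicate 1 lay above every DMSO value and replicate 2 below. Without replicate 2 the differences of Cenpw (1.42), Cenpq (0.70) and Cenpk (0.33) were therefore positive, with 1 ATRA array left. Cenpc1, which encodes the CENP-C link between nucleosome and outer kinetochore, differed by -1.84 (adjusted p = 0.109), with -0.80 in replicate 1 and -2.87 in replicate 2. Cenpi (-1.65), Cenpn (-1.76) and Cenph (-1.25) had the same lean to replicate 2, with adjusted p-values of 0.152, 0.0639 and 0.122. Cenpm differed by -0.61 (adjusted p = 0.187), which turned to 0.71 with the level trend removed and to 0.47 and 0.77 after quantile and cyclic loess normalization. Cenpp had the smallest difference of the 36 genes. It was at 6.89, 7.06 and 6.82 in DMSO and at 6.91 and 6.89 in ATRA, which is -0.02 with a 95% interval of -0.36 to 0.32, whose sign turned in the quantile, cyclic loess and trend-removed fits.

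In the outer kinetochore, 6 of 7 genes fell, against 15.5% of all genes. With the level trend removed 0 of the 7 were lower, against 0.996% of all genes, and 5 of the 7 differences were negative. Ndc80, the subunit whose head binds microtubules, fell from 7.88, 8.49 and 8.30 in DMSO to 6.11 and 5.52 in ATRA, which is 5.3-fold lower (log2 difference -2.41, SE 0.28, limma adjusted p = 0.0115). All ATRA values lay more than 1 log2 unit under the lowest DMSO value. With the level trend removed, Ndc80 had a difference of -1.22, the most negative of the 36, with -1.23 and -1.21 in the ATRA arrays, but it did not pass (adjusted p = 0.0614). Nuf2, its partner at the microtubule end, fell from 8.08, 8.34 and 8.25 to 6.94 and 6.50 (-1.501, adjusted p = 0.013), and stood at -0.31 with the trend removed (adjusted p = 0.309).

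Spc24 and Spc25 form the other end of the NDC80 complex, which docks on the inner kinetochore. Spc25 fell from 7.85, 8.12 and 7.85 to 7.18 and 6.78 (-0.96, limma adjusted p = 0.0323), a difference of 0.02 with the level trend removed. Spc24, at 8.98, 9.24 and 9.07 in DMSO, was at 9.28 in ATRA replicate 1 and 7.43 in replicate 2, and its difference of -0.74 did not pass (adjusted p = 0.333). With the trend removed Spc24 stood at 1.01 (adjusted p = 0.117), and it was positive after quantile (0.30) and cyclic loess (0.998) normalization as well. Within each array, the mean of Ndc80 and Nuf2 minus the mean of Spc24 and Spc25 was -0.44, -0.26 and -0.18 in DMSO and -1.71 and -1.10 in ATRA. This contrast was picked after the values were seen and is a description only. Its change was -1.11 as deposited and -1.29 with the level trend removed.

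Of the MIS12 complex, which joins the inner to the outer plate, Nsl1 fell from 7.74, 8.24 and 7.75 to 6.32 and 6.18 (-1.66, limma adjusted p = 0.0131). Dsn1 fell from 7.09, 6.50 and 7.27 to 5.80 and 5.69 (-1.21, adjusted p = 0.0429), with the widest DMSO spread of the 36 genes (SD 0.41). Their differences with the trend removed were -0.70 and -0.99, negative in both ATRA arrays, and did not pass (adjusted p = 0.169 and 0.115). Zwint, which binds the scaffold protein KNL1, fell from 9.09, 8.88 and 9.03 to 6.85 and 7.52 (-1.81, adjusted p = 0.0146). ATRA replicate 1 was the lower of the ATRA arrays here, and with the trend removed the arrays pointed apart, at -0.95 and 0.72.

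Among the 5 genes of proteins that hold or move along microtubules, 3 fell, against 15.5% of all genes. Ska3, of the SKA complex that follows shrinking microtubule ends, fell from 7.69, 7.53 and 7.53 to 6.16 and 5.57, or 3.29-fold (-1.72, SE 0.21, limma adjusted p = 0.0129). Its fall was the only one of the 36 to pass with the level trend removed (-1.01, adjusted p = 0.0396). Ska1 of the same complex fell from 8.20, 7.70 and 7.64 to 5.93 and 6.35 (-1.71, adjusted p = 0.0174), with -0.79 after removal of the trend (adjusted p = 0.217). The feature used for Ska2 was at 6.82, 6.79 and 6.79 in DMSO, at 6.79 in ATRA replicate 1 and at 5.51 in replicate 2 (-0.65, adjusted p = 0.257). Another Ska2 feature went from 4.72, 4.56 and 4.56 to 4.61 and 4.87, so the features of Ska2 disagreed. Cenpe, the kinesin that carries chromosomes to the spindle equator, fell from 7.78, 7.54 and 7.43 to 6.85 and 6.39 (-0.96, adjusted p = 0.038), of which -0.26 was left with the trend removed (adjusted p = 0.367). Cenpf, a large coiled-coil protein of the outer surface, was at 6.71, 6.92 and 6.85 in DMSO and at 6.56 and 5.89 in ATRA, and did not pass (-0.60, adjusted p = 0.135).

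In the spindle checkpoint, 3 of 7 genes fell, against 15.5% of all genes. In all 7 both ATRA values lay below every DMSO value as deposited, against 29.2% of all genes. With the level trend removed 3 of the 7 differences were negative, and their median was 0.11. Bub1b encodes BUBR1, the part of the checkpoint complex that blocks CDC20. It fell from 8.32, 8.22 and 8.09 to 6.19 and 6.11, which is 4.18-fold lower (-2.06, SE 0.13, limma adjusted p = 0.00639, the smallest of the 36). The ATRA arrays differed by 0.08, and with the level trend removed the difference was -0.88 (adjusted p = 0.0843). Ttk, the MPS1 kinase that starts the checkpoint, fell from 7.89, 8.08 and 8.09 to 7.23 and 6.69 (-1.06, adjusted p = 0.0318), but its difference with the trend removed was -0.02. Cdc20, the activator of the anaphase-promoting complex and target of the checkpoint, fell from 9.23, 9.23 and 9.48 to 7.76 and 8.19 (-1.34, adjusted p = 0.0165). Its direction turned after removal of the trend (0.54), cyclic loess (0.39) and quantile normalization (0.02).

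The other 4 checkpoint genes did not pass. Bub1, the kinase that recruits checkpoint proteins, was at 8.30, 8.23 and 8.13 in DMSO and at 7.34 and 5.84 in ATRA (-1.63, limma adjusted p = 0.0726), and at a difference of -0.45 with the trend removed. Bub3, the adaptor of BUB1 and BUBR1, was at 9.71, 9.49 and 9.63 and then at 8.82 and 7.24 (-1.58, adjusted p = 0.0879), and stood at 0.45 with the trend removed and 0.25 after cyclic loess. In both genes ATRA replicate 2 lay far under replicate 1 (-1.49 and -1.58), unlike in Bub1b. Mad2l1, the protein that locks onto CDC20, was at 9.977, 10.004 and 10.074 in DMSO, at 9.81 in ATRA replicate 1 and at 7.78 in replicate 2 (-1.22, adjusted p = 0.209). Replicate 1 differed from the DMSO mean by -0.21, where the trend over all genes stood at -1.42 for a DMSO value of 10. With the trend removed Mad2l1 stood at 0.98 (limma adjusted p = 0.0579). It was the rise called after cyclic loess normalization (0.84, adjusted p = 0.0303). Mad1l1, which brings MAD2 to the kinetochore, was at 7.36, 7.33 and 7.47 and then at 6.77 and 7.11 (-0.45, adjusted p = 0.102), and its sign turned in the quantile (0.22), cyclic loess (0.13) and trend-removed (0.11) fits.

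All 4 genes of the chromosomal passenger complex had both ATRA values below every DMSO value as deposited, against 29.2% of all genes. Of the 4, 2 fell, against 15.5% of all genes. With the level trend removed 2 of the 4 differences were negative, and their median was -0.16. Aurkb, the kinase Aurora B, fell from 9.57, 9.51 and 9.70 to 8.34 and 7.89 (-1.48, SE 0.18, limma adjusted p = 0.013), and turned to 0.54 with the level trend removed and to 0.36 after cyclic loess. Incenp, the scaffold of the complex, fell from 7.98, 8.36 and 7.995 to 6.59 and 6.51, or 2.95-fold (adjusted p = 0.0103), and kept its sign with the trend removed (-0.45, adjusted p = 0.295). Birc5, or survivin, had the most negative difference of all 36 genes, -2.87, and did not pass (SE 0.94, adjusted p = 0.0942). It was at 9.15, 8.99 and 8.81 in DMSO, at 7.63 in ATRA replicate 1 and at 4.59 in replicate 2. The difference from the DMSO mean was -4.39 in replicate 2 alone and -1.35 in replicate 1. Cdca8, or borealin, was at 8.44, 8.44 and 8.61 and then at 7.93 and 6.58 (-1.24, adjusted p = 0.104), with 0.13 when the trend was removed and 0.01 after cyclic loess.

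The ATRA arrays parted by unlike amounts from gene to gene. Across the 36 genes, Pearson's r between the difference from DMSO in ATRA replicate 1 and that in replicate 2 was 0.03, and 0.04 with the level trend removed. Both differences are taken from the same DMSO mean, and genes are not independent replicates. In 31 of 36 genes replicate 2 was the lower array, and in 9637 of all 22180 genes it was. For a DMSO value of 8, the trend over all genes stood at -0.79 in replicate 1 and at -1.29 in replicate 2. The ATRA arrays lay more than 1 log2 unit apart in 16 genes, 8 of them of the inner kinetochore, and 1 of the 16, Cenpt, passed. They lay less than 0.5 apart in 14 genes, of which 12 passed, and the test itself weighs this gap. The median gap was 1.496 for inner and 0.44 for outer kinetochore genes, and 0.51 over all genes.

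**Figure D2:**
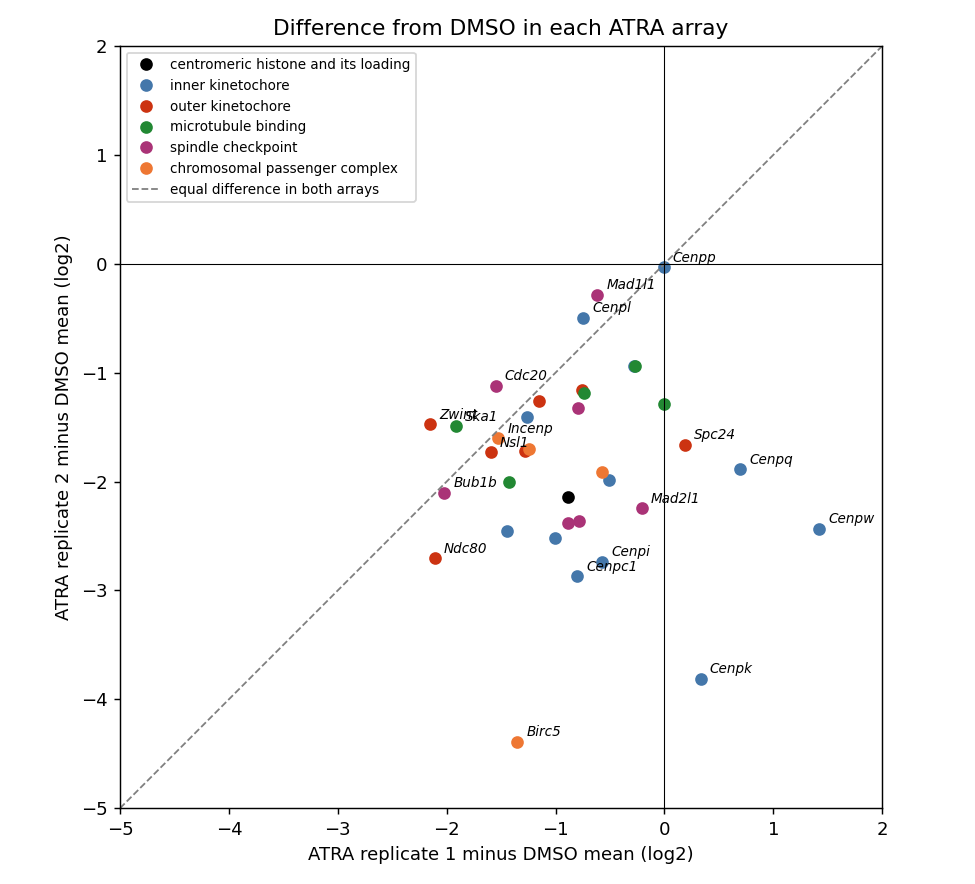
Log2 difference from the DMSO mean in ATRA replicate 1 (horizontal axis) and ATRA replicate 2 (vertical axis) for the 36 genes as deposited, coloured by role, with a dashed line of equal difference. Most points lie below the line, Cenpw, Cenpq, Cenpk and Spc24 lie right of 0, and Birc5 and Cenpk are lowest in replicate 2.

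With the level trend removed, 24 of 36 differences were negative, 21 in ATRA replicate 1 and 25 in replicate 2. Of all 22180 genes, 10693 were negative, 11311 in ATRA replicate 1 and 10977 in replicate 2. In 16 genes (44.4%) both arrays were below the trend, and in 30.6% of all genes they were. The median over the 36 genes was -0.01 in ATRA replicate 1 and -0.45 in replicate 2. The median of the mean difference was -0.51 for the inner kinetochore, -0.31 for the outer kinetochore, -0.54 for the microtubule-binding genes, 0.11 for the spindle checkpoint and -0.16 for the passenger complex. For the inner kinetochore it was 0.15 in replicate 1, where 3 of 12 genes were negative, and -0.71 in replicate 2, and for the outer kinetochore -0.87 and -0.23. The order of the genes changed: Ndc80, Birc5, Ska3, Dsn1 and Bub1b were lowest, and Spc24, Mad2l1, Cenpw and Cenpm were highest. Of the 17 falls, 13 kept a negative sign, and Cenpt, Spc25, Cdc20 and Aurkb did not.

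**Figure D3:**
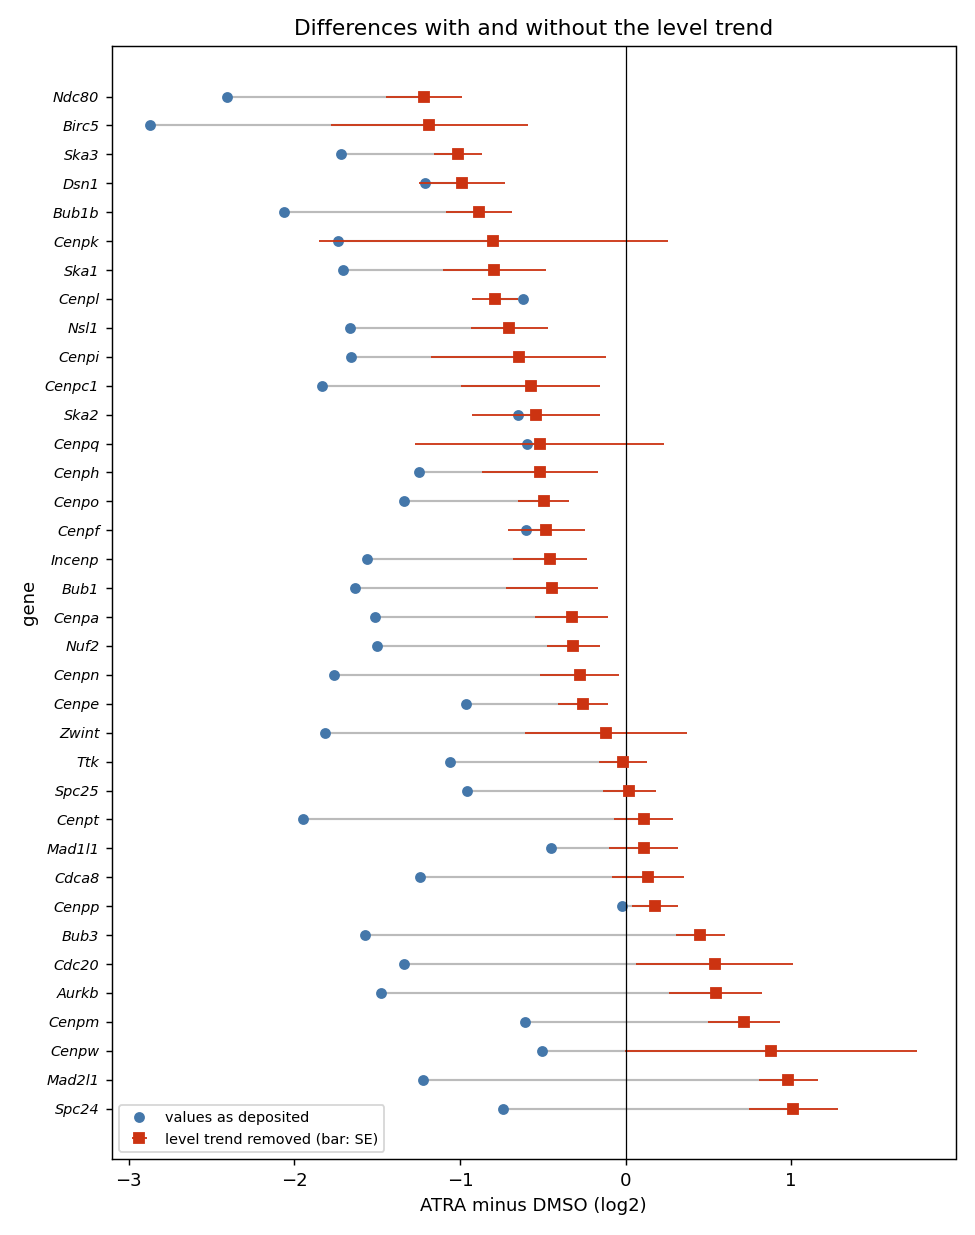
ATRA minus DMSO on the log2 scale (horizontal axis) for each gene (vertical axis), from the values as deposited (circles) and with the level trend removed (squares, bars show the SE). All 36 circles lie left of 0, and 24 squares do, from Ndc80 at -1.22 to Spc24 at 1.01.

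Further genes of the pathway were taken from fixed lists. Of all genes, 15.5% fell and 6.48% rose as deposited, and 0.996% were lower and 2.16% higher with the level trend removed. Of 25 other kinetochore and centromere genes with a feature, 0 rose, 13 fell and 12 did not pass, with a median of -1.08 as deposited and -0.39 with the trend removed. Pmf1, of the MIS12 complex, fell by 2.80 (limma adjusted p = 0.00627), and the microtubule regulators Clasp1 (-2.58) and Ckap5 (-1.96) and the checkpoint gene Zwilch (-1.60) fell too. None of these 4 passed with the level trend removed, where 1 of the 25 did, Cenpv, as higher and named after its value was seen (1.76, limma adjusted p = 0.024). Cenpv read 8.84 on each of the 3 DMSO arrays, identically, and 9.70 and 8.30 on the ATRA arrays, so as deposited its groups overlapped. Of 21 genes of the anaphase-promoting complex and its targets, on which the checkpoint acts, 0 rose, 12 fell and 9 did not pass (median -1.58, and 0.02 with the trend removed). The subunits Cdc23 (-2.85) and Anapc5 (-3.56) fell, as did Fzr1, the CDH1 activator (-1.797), and Espl1, the protease separase (-1.52), with limma adjusted p-values from 0.00627 to 0.0087. With the trend removed, Fzr1 stood at 0.02, and none of the 4 passed.

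Of 16 genes of the DREAM, MuvB and NF-Y complexes, which act at the promoter elements shown above, 0 rose, 10 fell and 6 did not pass (median -1.79, and -0.19 with the trend removed). Among all genes 15.5% fell as deposited, and 0.996% were lower with the trend removed. Lin54, the MuvB subunit that binds the CHR element, fell from a DMSO mean of 8.45 to 5.93 and 4.97 (-3.00, limma adjusted p = 0.0106), and passed with the trend removed as well (-1.66, adjusted p = 0.0267). Mybl2, or B-MYB, fell by 2.43 (adjusted p = 0.00876) and Foxm1, an activator of mitotic genes, by 1.31 (adjusted p = 0.0103). Neither passed with the trend removed, where Mybl2 stood at -0.42 (adjusted p = 0.696), with -1.42 and 0.59 in the ATRA arrays, and Foxm1 at -0.49 (adjusted p = 0.186). Rbl2, the pocket protein p130, fell by 1.17 (adjusted p = 0.0102), which turned to 0.16 with the trend removed. In that fit 1 of the 16 was higher, against 2.16% of all genes. It was the MuvB gene Lin37, also named after its value was seen (1.04, limma adjusted p = 0.049).

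The deposited values of 8 of the 36 genes repeated to the last digit between DMSO arrays. In Cenpw the value was the same in all 3, and in Cenpk, Cenpl, Cenpn, Spc25, Ska2, Cdca8 and Cdc20 it was the same in 2. The measured DMSO spread of these genes rests on fewer distinct values. Of all 41345 features, 2061 had the same value in all 3 DMSO arrays. Among the 28 of the 36 genes without repeats 14 fell, against 15.5% of all genes. Their median difference was -1.51, against 0.16 over all genes.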

How the data were processed

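RNA of sorted HSCs was measured on 5 arrays, 3 for DMSO and 2 for ATRA, grouped by sample titles. The authors deposited log2 expression values, 1 per feature and array. RMA, oligo 1.36.1 and limma 3.28.20 stand in the submitters' processing notes, which do not say what each was used for. Their genome build is not given in the sources used here. Whether all arrays were normalized together is not stated. Small RNA amounts were amplified and cells were sorted after treatment, per the labels' protocols, and both can shape the values.

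Of 41345 features, 23521 were listed with 1 gene, 1814 with several and 16010 with none. Symbols were updated by identifier for 23328, which left 22180 genes. No filter on low values was applied. The 2 groups were compared with limma 3.58.1 in R 4.3.3 (lmFit, eBayes, two-sided). Its p-values were adjusted by Benjamini-Hochberg over the 22180 genes, and 0.05 was the threshold. Residual degrees of freedom were 3, and the prior added 1.52. Differences and SEs are on the deposited log2 scale, which compresses dim features. The number of arrays limits the precision. For the level trend, a lowess curve (span 0.2) of each array's difference from the DMSO mean, over all genes, was subtracted. Scripts were tested on simulated data.

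Genes given with every array value were those past the threshold and a fixed set of centromere, checkpoint and passenger genes. Of other lists, the 4 smallest p-values were named, Lin54 among them. The genes, lists and alternatives were chosen with earlier results of these data known.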

Additional observations from a re-analysis of the deposited data

How the results depend on the processing

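The count of 17 falls (15.5% of all genes) was 18 with dim genes left out (25.3% of the genes tested) and 19 with arrays centred on their medians (17.3%). It was 17 with an intensity trend and robust prior (14.7%), 22 at a threshold of 0.1 (21.1%) and 17 with features of a gene averaged (15.1%). Leaving out genes with repeated DMSO values, chosen after seeing the data, gave 14, against 15.5% of all genes. All of these counts stayed within 1.5 times of 17. The count became 7 after quantile and 7 after cyclic loess normalization (3.87% and 5.1% of all genes), and 1 with the level trend removed (0.996%). It was 0 with array weights and 0 with the replicate number as a block, as for 0% of all genes in each fit. At an unadjusted limma p under 0.05, 20 and 22 of the 36 were lower in these fits, against 15.6% and 17.2% of all genes. Samples with the same number correlated at 0.13 and 0.10 in their deviations from the group means, over 2 pairs. The deviations of 2 ATRA arrays from their mean are equal and opposite, so these values are not independent. Nothing in the labels pairs the samples. Leaving out 1 array gave 0 to 32 falls, 0 to 2 rises and medians from -1.72 to -0.80. Rises were 0 in every other fit except 1 after cyclic loess. The median was -1.41 as deposited, -0.84 after quantile normalization, -0.58 after cyclic loess and -0.39 with the trend removed.

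The sign turned after quantile normalization for Cenpm (0.47), Cenpp (0.47), Spc24 (0.30), Mad1l1 (0.22) and Cdc20 (0.0223). After cyclic loess it turned for Cenpm (0.77), Cenpp (0.28), Cenpw (0.96), Spc24 (0.998), Bub3 (0.25), Mad1l1 (0.13), Mad2l1 (0.84), Cdc20 (0.39), Aurkb (0.36) and Cdca8 (0.00958). With the trend removed it turned for Cenpm (0.71), Cenpp (0.18), Cenpt (0.11), Cenpw (0.88), Spc24 (1.01), Spc25 (0.0240), Bub3 (0.45), Mad1l1 (0.11), Mad2l1 (0.98), Cdc20 (0.54), Aurkb (0.54) and Cdca8 (0.13). Leaving out 1 array gave -3.81 to 0.33 for Cenpk, -1.89 to 0.70 for Cenpq, -2.43 to 1.42 for Cenpw, -1.66 to 0.19 for Spc24 and -0.0708 to 0.0448 for Cenpp. The cause of these changes was not tested.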
